A study of Mus musculus with 4 samples.

Results

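The mouse mitochondrial genome is a small circular DNA that encodes a few subunits of the respiratory chain together with the ribosomal RNAs and transfer RNAs that translate them. Its genes were taken as all rows of the deposited gene table whose symbol begins with mt-, which gave 37 of 51912 rows: 13 protein genes, 2 ribosomal RNAs (rRNAs) and 22 transfer RNAs (tRNAs). All 37 lay on chromosome M of GRCm38 by identifier and symbol. RNA was measured by sequencing in subcutaneous white adipose tissue of C57BL/6 mice aged 8 weeks. There were 2 libraries from mice given BML-260 (A and B) and 2 from mice given the vehicle, labelled DMSO (A and B). No genetic change is named for either group. The design text speaks of 8 mice, 4 per treatment, and does not say how they were divided over the 4 libraries, so a library may hold pooled animals. A p-value here refers to the spread among these libraries, which may be technical. The A and B libraries differed beyond counting error, with a chi-square per degree of freedom of 45.6 for BML-260 and 40.4 for vehicle. BML-260, known as a small-molecule inhibitor of a dual-specificity phosphatase, was compared with its vehicle; dose and duration are not given in the labels.

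Both strands of mitochondrial DNA are transcribed as long RNAs that span many genes. Excision of the tRNAs that lie between the other genes releases most messenger RNAs and the 2 rRNAs, so genes of 1 strand share a precursor while their mature RNAs can differ in stability. The proteins are core subunits of complexes I, III and IV and of ATP synthase, and the other subunits, like the factors that copy, transcribe and translate mitochondrial DNA, come from nuclear genes. Fragments of mitochondrial DNA have also been inserted into the nuclear genome during evolution, and reads from a mitochondrial RNA can be assigned to such a copy when the sequences match.

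Such copies held a large part of the reads here. Of the 13 protein genes, 7 had a copy on chromosome 1 with at least 99% identity over at least 200 bases, all annotated as unprocessed pseudogenes on the minus strand within 4663 bases (chr1:24611535-24616197). Gm28437 matched 783 of the 784 bases of mt-Co3 without a substitution, Gm28661 matched 681 of 684 bases of mt-Co2, Gm10925 matched 678 of 681 bases of mt-Atp6 and Gm10222 matched 294 of 297 bases of mt-Nd4l. Gm28438 matched 345 of 348 bases of mt-Nd3 with 1 substitution, T3C, counted from 1 at the 5′ end of the mitochondrial transcript. Gm28439 covered 876 of 1378 bases of mt-Nd4, and Gm29216 covered 483 of 1545 bases of mt-Co1 with 1 substitution, A1066T. Only annotated GENCODE transcripts were searched, and the tRNAs, at 59 to 75 bases, are shorter than the 200 bases required. A nuclear copy of a tRNA, or an unannotated copy of mt-Atp8 or another member, could therefore not be found. The ends of 3 pairs are shown because few bases tell a read of the member from a read of its copy, and capitals mark some of them. They come from GENCODE vM21 transcripts (GRCm38), 5′ to 3′. In the mt-Co3 and mt-Nd4l lines the capitals are the bases beyond the end of the copy, and in the mt-Nd3 lines they mark T3C. The bases of mt-Nd3 beyond the 345 matched are not shown.
mt-Co3, 3′ end, chrM:9331-9390, plus strand: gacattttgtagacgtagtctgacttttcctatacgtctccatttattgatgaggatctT
Gm28437, 3′ end, chr1:24613189-24613247, minus strand: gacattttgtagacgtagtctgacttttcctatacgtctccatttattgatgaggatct
mt-Nd4l, 3′ end, chrM:10114-10173, plus strand: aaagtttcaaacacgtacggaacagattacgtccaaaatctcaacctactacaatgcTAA
Gm10222, 3′ end, chr1:24612407-24612463, minus strand: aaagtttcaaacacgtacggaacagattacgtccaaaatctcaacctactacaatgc
mt-Nd3, 5′ end, chrM:9459-9491, plus strand: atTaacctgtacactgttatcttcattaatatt
Gm28438, 5′ end, chr1:24613087-24613119, minus strand: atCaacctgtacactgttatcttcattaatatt

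The libraries held 19999836 and 23726781 expected counts with BML-260, against 20407836 and 23032466 with vehicle. Expected counts are estimates that divide a read among the genes it fits, so they need not be whole. Mitochondrial rows made up 7.27% and 7.62% of all counts with BML-260, against 7.10% and 6.87% with vehicle. The exact 95% Clopper-Pearson intervals of these shares reached at most 0.0114 percentage points to either side and cover counting error only. The 7 nuclear copies are not part of these shares.

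As classes, the protein genes and rRNAs were somewhat higher with BML-260, and the sum of the tRNA rows, mostly mt-Tp, was not. The 13 protein genes summed to 68768 and 80804 CPM (counts scaled to library total and TMM factors) with BML-260, against 67510 and 67363 CPM with vehicle. The log2 ratio of the group means was 0.15, a 1.11-fold difference, and the groups did not overlap. BML-260 A lay close to the vehicle libraries and BML-260 B well above them, and without BML-260 B the log2 ratio was 0.024. The rRNAs summed to 795 and 983 CPM with BML-260, against 686 and 551 CPM with vehicle, a log2 ratio of 0.52 (1.44-fold) without overlap. The tRNA rows summed to 471 and 605 CPM with BML-260, against 554 and 525 CPM with vehicle, a log2 ratio of -0.0045 with overlapping groups. mt-Tp made up 86.9% and 87.9% of these counts with BML-260, against 91.1% and 89.6% with vehicle. Without mt-Tp the log2 ratio of the tRNA rows was 0.38, and the length behind the mt-Tp row did not match the gene (below). The two-sided exact permutation p was 0.333 for protein genes and rRNAs, the smallest that 2 libraries against 2 can give, and 1 for the tRNA rows. The 7 nuclear copies summed to 25770 and 31475 CPM with BML-260, against 25860 and 26797 CPM with vehicle (log2 ratio 0.12). In bulk tissue, fewer cells of a type and less RNA per cell cannot be told apart.

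**Figure D1:**
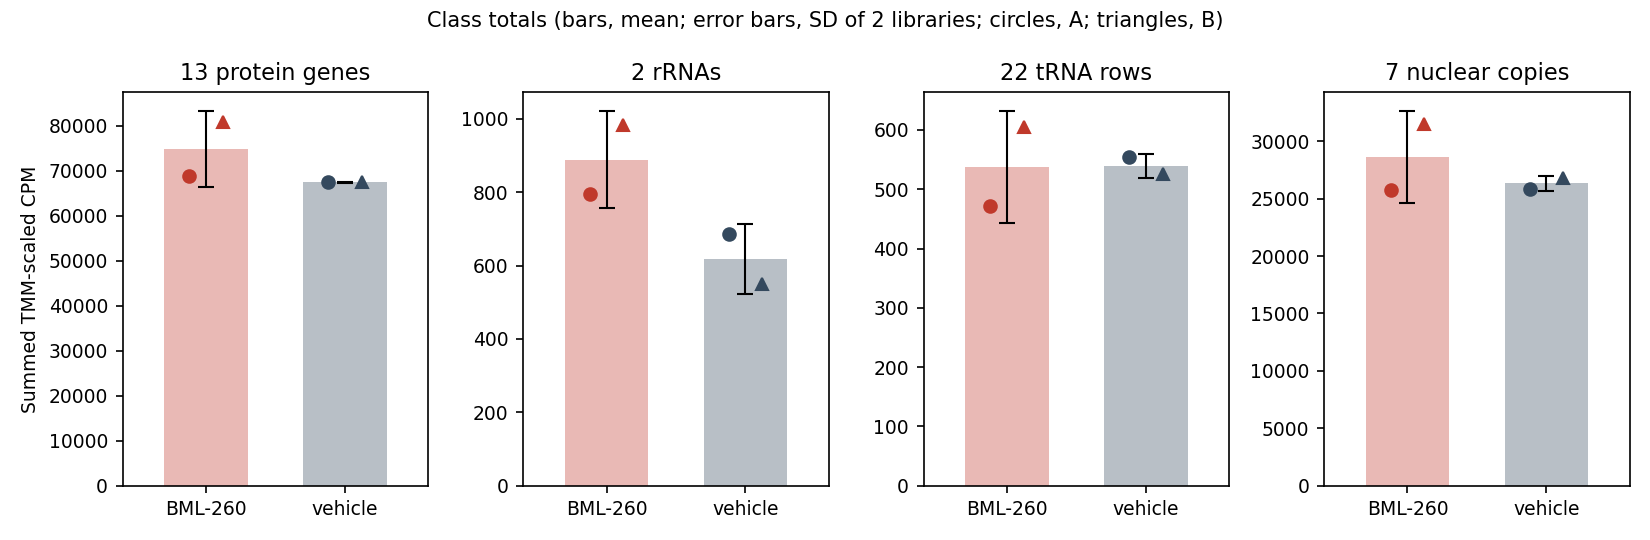
Summed TMM-scaled CPM (vertical axis, from 0) of the 13 protein genes, 2 rRNAs, 22 tRNA rows and 7 nuclear copies with BML-260 (left bar) and vehicle (right bar); bars are means, error bars the SD of 2 libraries, circles library A and triangles library B. BML-260 B is the highest library in all 4 panels, and the groups are apart for protein genes and rRNAs.

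Of the 37 rows, 18 passed the filter on low counts: all 13 protein genes, both rRNAs and the tRNA rows mt-Tp, mt-Tq and mt-Ts1. Adjusted by Benjamini-Hochberg over 15643 genes in edgeR's quasi-likelihood test, 0 of the 18 passed an adjusted p of 0.05, where 0.00639% of all genes (1 gene, Ucp1, the uncoupling protein of thermogenic fat) passed. At an unadjusted p under 0.05 there were 4 members, mt-Co3, mt-Nd4l, mt-Ts1 and mt-Rnr1, all higher with BML-260, where 11.1% of all genes passed in either direction and 7.45% on the higher side. DESeq2 called 2 members, mt-Co3 and mt-Nd4l, against 2.59% of all genes, and limma-voom called 0. The authors' deposited table also called these 2, against 2.28% of the genes tested here. The fitted log2 fold change was above 0 for 14 of the 18, against 52.5% of all genes, with a median of 0.19 against 0.017 over all tested genes. The groups did not overlap for 11 members, 10 of them higher with BML-260 and mt-Atp6 lower, where 44.3% of all genes did not overlap and 22.9% were higher without overlap.

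**Figure D2:**
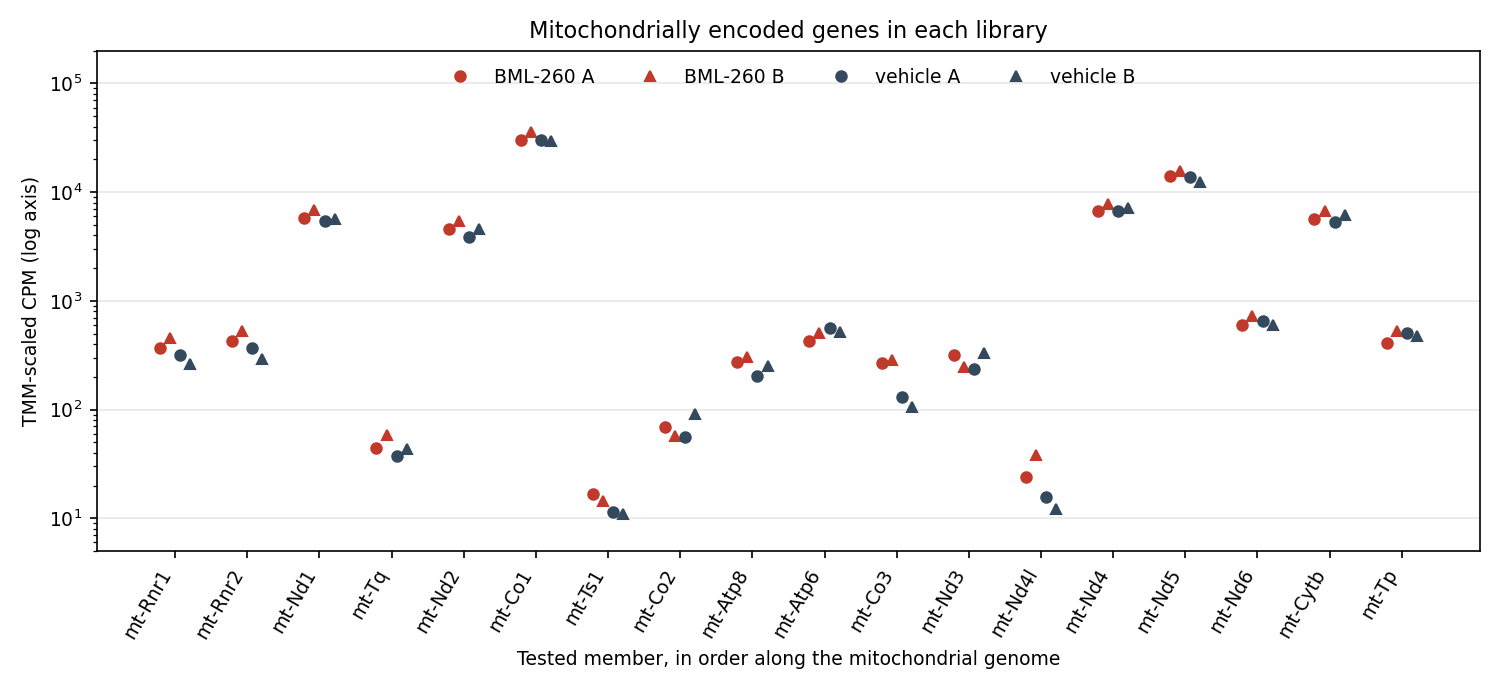
TMM-scaled CPM (vertical log axis) of the 18 tested mitochondrial rows in order along chromosome M; red points are BML-260 libraries, dark points vehicle libraries, circles A and triangles B. The widest gaps between the groups are at mt-Co3 and mt-Nd4l, and the 5 members with a nearly complete nuclear copy, mt-Co2, mt-Atp6, mt-Co3, mt-Nd3 and mt-Nd4l, lie between 12.1 and 563 CPM.

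Complex I, which passes electrons from NADH to ubiquinone, has 7 mitochondrially encoded subunits. mt-Nd1, part of its membrane arm, had 5803 and 6872 CPM with BML-260, against 5392 and 5610 CPM with vehicle (log2 fold change 0.20, SE 0.27). mt-Nd2 had 4627 and 5459 CPM with BML-260, against 3892 and 4590 CPM with vehicle (0.25, SE 0.27). The groups did not overlap for either gene, with the vehicle libraries the lower ones by a narrow margin. mt-Nd5, at the far end of the membrane arm, had 14022 and 15785 CPM with BML-260, against 13889 and 12440 CPM with vehicle (0.18, SE 0.30). mt-Nd4, beside it in the arm, had 6737 and 7792 CPM with BML-260, against 6758 and 7145 CPM with vehicle (0.06, SE 0.27), and its groups overlapped. mt-Nd3 had 320 and 247 CPM with BML-260, against 236 and 331 CPM with vehicle (log2 fold change -0.0033, SE 0.24), with groups that crossed. The adjusted p in edgeR's quasi-likelihood test lay between 0.756 and 0.997 for these 5.

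mt-Nd6, another complex I subunit and the 1 protein gene of the 13 on the minus strand, had 596 and 719 CPM with BML-260, against 656 and 595 CPM with vehicle. Its log2 fold change was 0.07 (SE 0.20, adjusted p = 0.912 in edgeR's quasi-likelihood test). Per 100 counts of the plus-strand protein genes, mt-Nd6 had 0.874 and 0.898 with BML-260, against 0.981 and 0.891 with vehicle, and the groups overlapped. mt-Nd6 overlaps mt-Nd5 by 14 bases on opposite strands, and whether the counting used strand is not stated in the labels.

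mt-Nd4l, the remaining complex I subunit, had 23.8 and 38.0 CPM with BML-260, against 15.8 and 12.1 CPM with vehicle, without overlap. These were 494 and 834 counts with BML-260, against 333 and 281 with vehicle. The log2 fold change was 1.15 (SE 0.27, adjusted p = 0.329 in edgeR's quasi-likelihood test), a 2.21-fold difference with a 95% interval of 1.37 to 3.56. The adjusted p was 0.0183 in DESeq2 and 0.0101 in edgeR without the filter on low counts. Without that filter edgeR called 651 of all genes, and with it 1. The authors' deposited table lists 0.93 on the log2 scale with an adjusted p of 0.0178.

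mt-Co3, a core subunit of complex IV (cytochrome c oxidase), had the largest fold change of the 18 members. It had 5538 and 6312 counts with BML-260, against 2772 and 2433 with vehicle, which was 267 and 288 CPM with BML-260, against 132 and 105 CPM with vehicle. Both BML-260 libraries stood above both vehicle libraries. The log2 fold change was 1.23 (SE 0.17, adjusted p = 0.249 in edgeR's quasi-likelihood test), a 2.34-fold difference with a 95% interval of 1.75 to 3.14. The adjusted p was 4.63e-09 in DESeq2 and 0.00279 in edgeR without the filter on low counts, the fit that called 651 of all genes. The authors' deposited table lists 1.13 on the log2 scale with an adjusted p of 1.17e-08.

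The row of mt-Co3 held a small part of the reads that fit its sequence. Of the sum of mt-Co3 and Gm28437, whose ends are printed above, mt-Co3 had 2.99% and 2.67% with BML-260, against 1.47% and 1.16% with vehicle. The sum itself was 8931 and 10787 CPM with BML-260, against 8932 and 9045 CPM with vehicle, and the groups overlapped. With each member and its copy counted as 1 gene, the log2 fold change of mt-Co3 was 0.13 (SE 0.29, adjusted p = 0.889 in edgeR's quasi-likelihood test; adjusted p = 0.942 in DESeq2). mt-Nd4l had 5.55% and 6.66% of its sum with Gm10222 with BML-260, against 4.33% and 2.77% with vehicle. That sum was 428 and 570 CPM with BML-260, against 365 and 439 CPM with vehicle, overlapping, and its log2 fold change was 0.31 (SE 0.22, adjusted p = 0.628 in edgeR's quasi-likelihood test; adjusted p = 0.721 in DESeq2). For both genes the member's share of the pair was higher in both BML-260 libraries, and the sum passed in neither tool. Why the share differed was not tested.

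The other 5 pairs were divided in other proportions. mt-Co2, which carries the copper centre that accepts electrons from cytochrome c, had 0.724% and 0.494% of its sum with Gm28661 with BML-260, against 0.596% and 0.957% with vehicle. mt-Atp6, the proton channel subunit of ATP synthase, had 5.98% and 5.99% with BML-260, against 8.08% and 6.97% with vehicle. mt-Nd3 had 46.1% and 30.8% with BML-260, against 36.8% and 44.5% with vehicle. In contrast mt-Nd4 held at least 99.9% of its pair in every library, and mt-Co1 held 99.9% and 98.7% with BML-260, against 98.5% and 97.8% with vehicle. The share differed between groups without overlap for mt-Co1, mt-Co3 and mt-Nd4l (higher with BML-260) and for mt-Atp6 (lower), each with a two-sided exact permutation p of 0.333, the smallest possible.

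**Figure D3:**
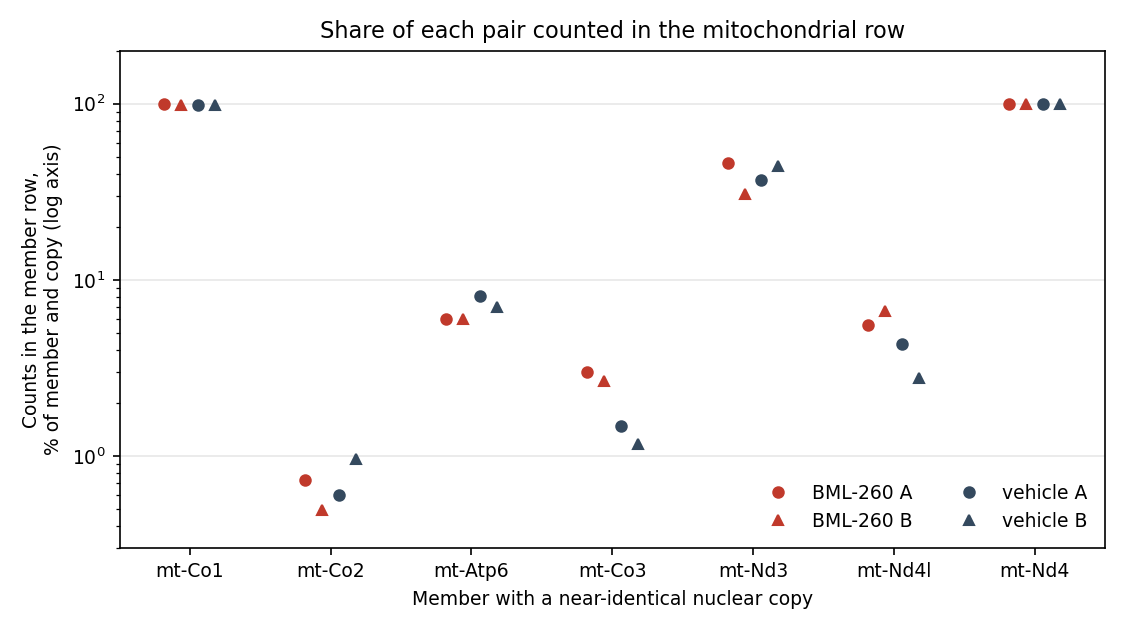
Counts in the mitochondrial row as a percentage of the counts of that row and its nuclear copy (vertical log axis) for the 7 members with a copy; red points are BML-260 libraries, dark points vehicle libraries, circles A and triangles B. mt-Co2, mt-Atp6, mt-Co3 and mt-Nd4l hold under 10% in every library, mt-Co1 and mt-Nd4 over 97%.

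Summing drew the 7 together. Taken alone, their log2 fold changes ran between -0.23 (mt-Co2) and 1.23 (mt-Co3), and summed with the copies between 0.06 (mt-Nd4) and 0.31 (mt-Nd4l). mt-Co2 alone had 69.4 and 57.1 CPM with BML-260, against 56.5 and 91.4 CPM with vehicle (log2 fold change -0.23, SE 0.25), and its sum had 9578 and 11548 CPM with BML-260, against 9492 and 9548 CPM with vehicle (0.15). mt-Atp6 alone had 431 and 504 CPM with BML-260, against 563 and 517 CPM with vehicle (-0.21, SE 0.18), and its sum had 7209 and 8405 CPM with BML-260, against 6968 and 7419 CPM with vehicle (0.12). The sums of mt-Nd3, mt-Co1 and mt-Nd4 with their copies had log2 fold changes of 0.11, 0.12 and 0.06. After summing, 0 of the 18 members passed in edgeR or in DESeq2, 2 (mt-Ts1 and mt-Rnr1) had an unadjusted p under 0.05 in edgeR, where 11.1% of all genes had one, and the median was 0.16. That count of 2 in 18 is near the share over all genes. Of the copies by themselves, 6 had log2 fold changes between 0.03 and 0.27, and Gm29216 had -1.08 (SE 1.08), with 34.8 and 493 CPM with BML-260, against 458 and 654 CPM with vehicle. The low value of Gm29216 was that of 1 library, BML-260 A.

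**Figure D4:**
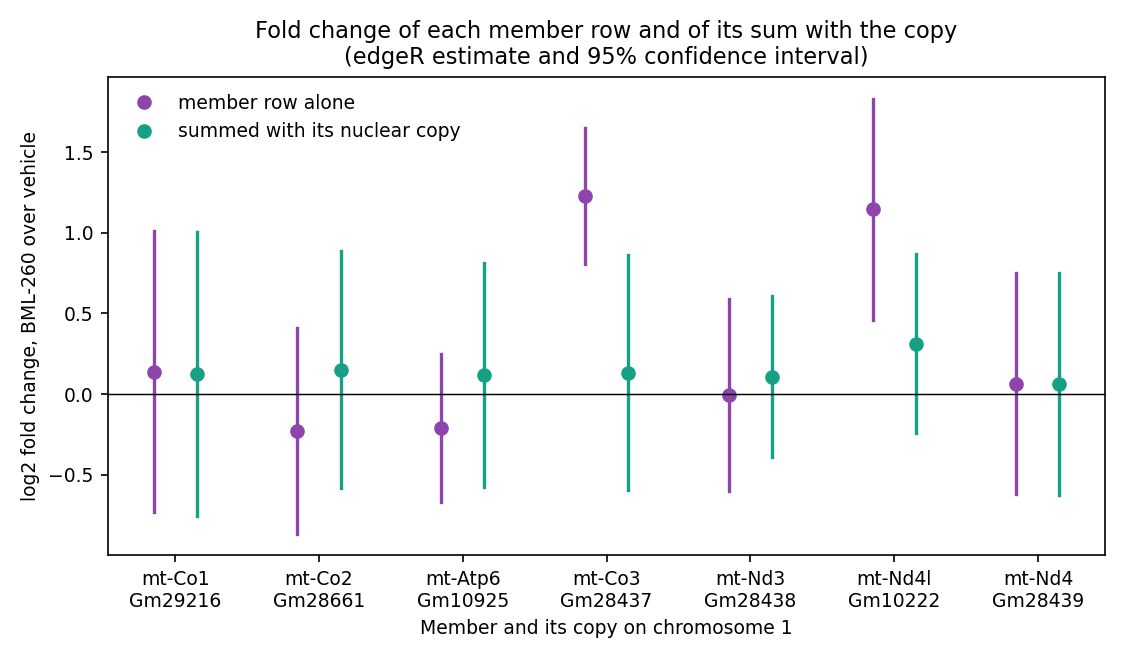
Log2 fold change of BML-260 over vehicle (vertical axis) for the 7 members with a nuclear copy, for the member row alone (purple, left of each pair) and for its sum with the copy (green, right); points are edgeR estimates and bars 95% confidence intervals. mt-Co3 is at 0.13 and mt-Nd4l at 0.31 when summed, and all 7 green intervals include 0.

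mt-Co1, the catalytic subunit of complex IV, was the most counted member. It had 43.5% and 44.6% of all protein-gene counts with BML-260, against 45.0% and 43.9% with vehicle. These shares leave out the nuclear copies and would be lower with them. Counts of the copies equalled 37.5% and 39.0% of the protein-gene counts with BML-260, against 38.3% and 39.8% with vehicle. mt-Co1 had 29904 and 36053 CPM with BML-260, against 30361 and 29545 CPM with vehicle (log2 fold change 0.14, SE 0.34), and the groups overlapped. mt-Cytb, the mitochondrially encoded subunit of complex III, had 5697 and 6685 CPM with BML-260, against 5354 and 6127 CPM with vehicle (0.11, SE 0.27). Both had an adjusted p above 0.9 in edgeR's quasi-likelihood test, at 0.903 and 0.904.

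mt-Atp8, the small second ATP synthase subunit, shares a transcript with mt-Atp6. The junction is shown because 43 bases (capitals) belong to both genes, so that reads there can be counted to either.
mt-Atp8 to mt-Atp6, chrM:7915-7981, plus strand: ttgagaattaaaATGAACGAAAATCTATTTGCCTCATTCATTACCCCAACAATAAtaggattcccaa
mt-Atp8 had 273 and 306 CPM with BML-260, against 205 and 254 CPM with vehicle (log2 fold change 0.34, SE 0.17, adjusted p = 0.538 in edgeR's quasi-likelihood test), without overlap. Per 100 counts of mt-Atp6 it had 63.3 and 60.7 with BML-260, against 36.3 and 49.1 with vehicle. Per 100 counts of mt-Atp6 and its copy together, it had 3.78 and 3.64 with BML-260, against 2.94 and 3.42 with vehicle. The groups stayed apart in both ratios, and the 1.45-fold difference of the first was 1.17-fold in the second (two-sided exact permutation p = 0.333 for each, the smallest possible). The same kind of junction, 7 bases long, joins mt-Nd4l to mt-Nd4, and mt-Nd4l per 100 counts of mt-Nd4 was 0.353 and 0.488 with BML-260, against 0.234 and 0.170 with vehicle (2.08-fold). With the copies added to both genes, it was 6.35 and 7.32 with BML-260, against 5.39 and 6.14 with vehicle (1.19-fold), and the groups stayed apart (two-sided exact permutation p = 0.333, the smallest possible).

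Levels of different members can be compared only per length, and the deposited FPKM, counts scaled to gene length and library total, do this by an effective length. Dividing counts by FPKM gave the effective length behind each row. For 11 protein genes and rRNAs of at least 500 bases it was 302 to 306 bases short of the annotated length (median 304), mt-Nd5 excepted. In short genes little was left: mt-Atp8 was divided by 4.55 of its 204 bases, mt-Nd4l by 32.1 of 297 and mt-Nd3 by 62.9 of 348. mt-Nd5 went the other way, with an effective length of 2029 bases for 1824 annotated. By FPKM mt-Atp8 ranked first, with 67256 and 59258 FPKM with BML-260, against 51215 and 50261 FPKM with vehicle, ahead of mt-Co1 with 24164 and 28297 FPKM with BML-260, against 25038 and 23657 FPKM with vehicle. mt-Co3, with 562 and 581 FPKM with BML-260, against 285 and 217 FPKM with vehicle, and mt-Co2, with 185 and 145 FPKM with BML-260, against 155 and 238 FPKM with vehicle, ranked 14th and 17th of the 19 rows above 0 in every library.

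Taken as unscaled CPM per kilobase of annotated length, with each copy added to its member, the order was different. mt-Co1 averaged 21003 CPM per kilobase with BML-260 and 20114 with vehicle, mt-Co2 averaged 15080 with BML-260 and 14174 with vehicle, and mt-Co3 averaged 12279 with BML-260 and 11675 with vehicle. mt-Atp6 followed with 11206 with BML-260 and 10754 with vehicle, so that the 3 complex IV subunits and mt-Atp6 were the 4 highest of the protein genes. Without the copies mt-Co2 averaged 91.3 with BML-260 and 110 with vehicle, and mt-Co3 averaged 346 with BML-260 and 154 with vehicle. Next came mt-Nd5, at 7995 with BML-260 and 7356 with vehicle, and mt-Nd1, at 6470 with BML-260 and 5852 with vehicle. mt-Cytb (5288 with BML-260, 5106 with vehicle) and mt-Nd4 with its copy (5158 with BML-260, 5140 with vehicle) did not differ from each other beyond their spread over libraries. At the low end were mt-Atp8 (1388 with BML-260, 1143 with vehicle) and mt-Nd6 (1237 with BML-260, 1228 with vehicle). Over the libraries, the values of mt-Atp8 and mt-Nd6 overlapped each other. Annotated length makes no allowance for the bases by which effective length fell short of it. mt-Atp8, with an effective length of 4.55 for 204 annotated bases, can therefore not be ranked by level in this way. The order of mt-Nd5 and mt-Nd1 is likewise not settled, as mt-Nd5 had an effective length of 2029 bases for 1824 annotated.

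**Figure D5:**
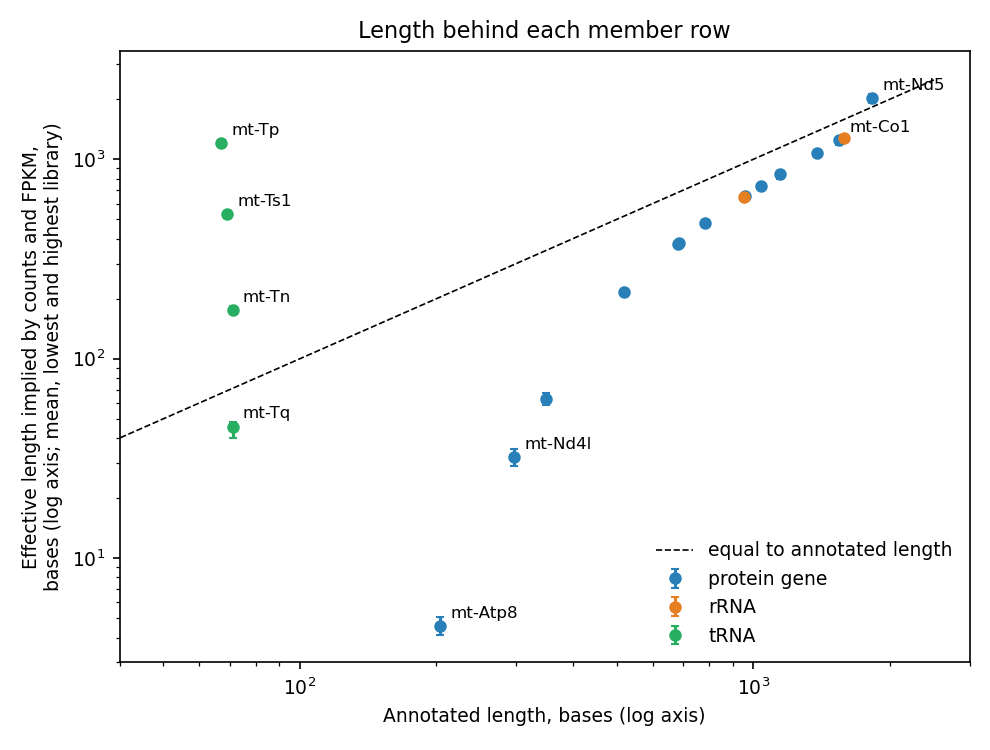
Effective length implied by the deposited counts and FPKM (vertical log axis, bases; point, mean of the 4 libraries; bars, lowest and highest library) against annotated length (horizontal log axis, bases) for protein genes, rRNAs and tRNA rows; the dashed line marks equal lengths. mt-Tp, mt-Ts1, mt-Tn and mt-Nd5 lie above the line, and the short protein genes mt-Atp8 and mt-Nd4l lie far below it.

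The 2 rRNAs of the mitochondrial ribosome were both higher with BML-260, by nearly the same amount. mt-Rnr1, the small-subunit rRNA (12S), had 368 and 460 CPM with BML-260, against 315 and 262 CPM with vehicle. The log2 fold change was 0.52 (SE 0.20, adjusted p = 0.440 in edgeR's quasi-likelihood test), a 1.44-fold difference with a 95% interval of 1.02 to 2.03. mt-Rnr2, the large-subunit rRNA (16S), had 427 and 523 CPM with BML-260, against 371 and 289 CPM with vehicle (0.52, SE 0.21, adjusted p = 0.456). The groups did not overlap for either, and the gap between BML-260 A and vehicle A was the narrowest. mt-Rnr1 per 100 counts of mt-Rnr2 was 86.3 and 88.0 with BML-260, against 84.98 and 90.5 with vehicle, and the groups overlapped. The rRNAs per 100 protein-gene counts were 1.16 and 1.22 with BML-260, against 1.02 and 0.818 with vehicle (two-sided exact permutation p = 0.333, the smallest possible). In CPM per kilobase the rRNAs lay below all the protein genes once copies were added, mt-Rnr1 at 423 with BML-260 and 308 with vehicle and mt-Rnr2 at 293 with BML-260 and 213 with vehicle. The labels name total RNA and standard Illumina library protocols, and do not say how rRNA or polyadenylated RNA was selected.

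Of the 22 tRNA rows, 17 were at 0 in all 4 libraries, among them all 14 on the plus strand. By counting error alone, 0 counts allow a row up to 1.26e-05% to 1.5e-05% of a library's counts. The tRNAs are 59 to 75 bases long, shorter than the 304 bases by which effective length fell short of annotated length. The zeros therefore set no upper limit on the level of these tRNAs. On the minus strand, 3 of 8 rows were at 0, 2 had at most 5 counts and 3 had over 100 in every library. The sequences of the 4 tRNAs with an effective length are shown because those lengths did not match the genes, with capitals where a neighbouring gene overlaps (GENCODE vM21, GRCm38, minus strand of chromosome M).
mt-Tp, proline tRNA, chrM:15356-15422: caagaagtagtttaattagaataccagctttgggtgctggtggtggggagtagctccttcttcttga
mt-Tq, glutamine tRNA, chrM:3772-3842: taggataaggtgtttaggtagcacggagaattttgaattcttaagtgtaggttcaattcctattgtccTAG
mt-Ts1, serine tRNA, chrM:6870-6938: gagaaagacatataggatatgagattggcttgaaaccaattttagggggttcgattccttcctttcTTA
mt-Tn, asparagine tRNA, chrM:5089-5159: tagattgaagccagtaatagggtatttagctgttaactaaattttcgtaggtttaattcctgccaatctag

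The row of mt-Tp, printed above at 67 bases, had an implied effective length of 1208 bases. That of mt-Ts1, at 69 bases, was 531 bases, and that of mt-Tn, at 71 bases, was 176 bases. For mt-Tq, also 71 bases, it was 45.7 bases. Adding the median shortfall of 304 bases gives mt-Tq a row of 350 bases, also longer than the gene. The labels do not say what these rows covered beyond the tRNA, so their counts cannot be read as levels of the mature tRNA.

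mt-Tp made up 86.9% and 87.9% of tRNA-row counts with BML-260, against 91.1% and 89.6% with vehicle. It had 8499 and 11672 counts with BML-260, against 10637 and 10885 with vehicle (log2 fold change -0.05, SE 0.20, adjusted p = 0.942 in edgeR's quasi-likelihood test), and its groups overlapped. Without mt-Tp the log2 ratio of the summed tRNA rows was 0.38. mt-Tq had 925 and 1279 counts with BML-260, against 795 and 1000 with vehicle (0.34, SE 0.17, adjusted p = 0.523), and its CPM did not overlap by a narrow margin, 44.5 and 58.3 with BML-260 against 37.7 and 43.2 with vehicle. mt-Ts1 had 349 and 317 counts with BML-260, against 240 and 254 with vehicle (0.48, SE 0.17, adjusted p = 0.421), without overlap in CPM. mt-Ts1 overlaps mt-Co1 by 3 bases and mt-Tq overlaps mt-Ti by 3 bases, both on opposite strands. mt-Tn had 4.85 and 4.81 counts with BML-260, against 2.23 and 4.31 with vehicle, and mt-Tc, the cysteine tRNA, had 1 count, in BML-260 A. Both were too low to test.

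The nuclear genes that maintain and read mitochondrial DNA, and those that complete its complexes, differed little between the groups. Of 237 such genes tested, 0 passed in edgeR's quasi-likelihood test, and an unadjusted p under 0.05 was reached by 1 on the higher side (Atp5g1) and 5 on the lower side (Lars2, Hsd17b10, Mrps30, Mterf4 and Dguok). Over all tested genes these were 7.45% on the higher side and 3.61% on the lower side. DESeq2 called 1 of them (lower) and limma-voom 0, and the median log2 fold change was -0.02. Lars2, the mitochondrial leucyl-tRNA synthetase, was the gene DESeq2 called, with 63.7 and 79.5 CPM with BML-260, against 155 and 101 CPM with vehicle (log2 fold change -0.84, SE 0.24; adjusted p = 0.377 in edgeR's quasi-likelihood test and 0.0447 in DESeq2). Its groups did not overlap, and the vehicle libraries were farther from each other than the BML-260 libraries were.

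Among genes for copying mitochondrial DNA, 9 of 11 had log2 fold changes below 0 (median -0.11). Polg, its polymerase, had 65.4 and 77.9 CPM with BML-260, against 76.1 and 78.4 CPM with vehicle (-0.11). Dguok, a deoxynucleoside kinase of mitochondria, was at -0.36, Ssbp1, which coats single-stranded mitochondrial DNA, at -0.19, and Tk2, a thymidine kinase, at -0.19. Among 10 transcription factors and polymerases of mitochondria the median was 0.04. Tfam, which packages mitochondrial DNA and starts its transcription, had 27.6 and 27.2 CPM with BML-260, against 26.3 and 26.97 CPM with vehicle (0.04), and Polrmt, the RNA polymerase, had 32.5 and 36.7 CPM with BML-260, against 27.1 and 31.8 CPM with vehicle (0.23). Mterf4, of the termination factor family, was at -0.52 and Tefm, the elongation factor, at -0.15. None of these passed.

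Of 25 genes for mitochondrial RNA processing and stability, 15 were above 0 (median 0.03). Lrpprc, which stabilises mitochondrial messenger RNAs, had 55.0 and 70.7 CPM with BML-260, against 50.5 and 53.6 CPM with vehicle (0.27). Hsd17b10, a subunit of mitochondrial RNase P, was at -0.49, Mtpap, the poly(A) polymerase, at -0.29 and Slirp, the partner of Lrpprc, at -0.31. tRNA modification enzymes had a median of -0.04 over 14 genes, with Osgepl1 at 0.38, Trit1 at -0.30 and Gtpbp3 at -0.24, and tRNA synthetases had a median of -0.04 over 22 genes, with Mars2 at 0.43 and Nars2 at -0.31. Of 78 proteins of the mitochondrial ribosome, the partners of the 2 rRNAs, 57 were below 0 (median -0.08), 29 were lower and 6 higher without overlap of groups, and 0 passed (1 at an unadjusted p under 0.05, lower). Over all tested genes, 47.5% were below 0, 21.5% were lower and 22.9% higher without overlap. Mrps30 was at -0.37, Mrpl27 at -0.36 and Mrpl52 at -0.38. The median of all tested genes was 0.017.

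The 77 nuclear subunits of complexes I to V had a median of 0.03, with 45 above 0 and 0 passed. Their medians by complex were 0.02 for complex I (36 genes), 0.11 for complex II (4 genes), 0.05 for complex III (9 genes), 0.02 for complex IV (11 genes) and 0.02 for ATP synthase (17 genes). Atp5g1, which encodes a form of the ATP synthase c subunit, had 54.5 and 64.6 CPM with BML-260, against 39.6 and 45.6 CPM with vehicle (0.48), the 1 gene of the 237 higher at an unadjusted p under 0.05. Uqcrc1, a core protein of complex III, was at 0.36, Uqcrc2 at 0.20 and Uqcrh at -0.16. Of the smallest p in the other complexes, Ndufa2, Ndufa10 and Ndufa1 of complex I were at -0.24, 0.24 and 0.26, Cox7a2, Cox8a and Cox5a of complex IV at -0.26, -0.32 and 0.22, Sdhd, Sdha and Sdhc of complex II at 0.19, 0.15 and -0.11, and Atp5g3 and Atp5h of ATP synthase at -0.29 and -0.17. Ppargc1a, a coactivator of mitochondrial gene expression, had 16.6 and 18.6 CPM with BML-260, against 13.2 and 9.38 CPM with vehicle (0.64, SE 0.22, adjusted p = 0.418 in edgeR's quasi-likelihood test).

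Of the marker lists of cell types, the skeletal muscle, beige, adipocyte and endothelial sums did not overlap between the groups. The B-cell sums did not overlap by a narrow margin. The T and NK cell, macrophage and erythroid sums overlapped. The mammary epithelium sums, low in every library, did not overlap, and the heart muscle sums, also low, did. Of all tested genes taken singly, 44.3% did not overlap. All 20 skeletal muscle markers were above 0 in log2 fold change, 0 of them passed in edgeR, none was at 0 counts throughout, and they summed to 37181 and 57309 CPM with BML-260, against 533 and 13223 CPM with vehicle. With a muscle score as a term in the fit, the log2 fold change was 1.52 for mt-Co3, 1.42 for mt-Nd4l, 0.74 for mt-Rnr1, 0.83 for mt-Rnr2 and 0.03 for mt-Atp8, with 1 residual degree of freedom and no call. The 8 adipocyte markers, all detected, were below 0 in log2 fold change, and summed to 13215 and 18051 CPM with BML-260, against 19673 and 18767 CPM with vehicle. The 7 brown or beige adipocyte markers were above 0, and summed to 522 and 572 CPM with BML-260, against 117 and 141 CPM with vehicle. T and NK cell markers summed to 116 and 14.7 CPM with BML-260, against 8.26 and 21.0 CPM with vehicle, and B-cell markers to 166 and 2.82 CPM with BML-260, against 1.80 and 2.59 CPM with vehicle, high in BML-260 A alone. Endothelial markers summed to 372 and 472 CPM with BML-260, against 565 and 514 CPM with vehicle. Macrophage markers summed to 1799 and 828 CPM with BML-260, against 1091 and 1242 CPM with vehicle, and erythroid markers to 407 and 1556 CPM with BML-260, against 1178 and 862 CPM with vehicle. Heart muscle markers summed to 1.35 CPM or less in every library, and mammary epithelium markers to 0.911 CPM or less. The part of these cell types in the class totals was not tested.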

How the data were processed

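Per the labels' protocols, RNA of subcutaneous white adipose tissue was isolated with TRIzol before Illumina library preparation. In 1 table the authors deposited expected counts and FPKM for each gene, per the file headers, along with their own log2 fold change, p-value and adjusted p-value. HISAT2 2.1.0, RSEM 1.2.31, DESeq2 1.10.1 and GRCm38.p5 are named in the submitters' processing notes with no role stated. Of annotation and strand setting the sources used here say nothing. Gene positions, transcripts and sequences came from GENCODE vM21 (GRCm38).

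Libraries were grouped by the treatment label. Expected counts were rounded to whole numbers and filtered with filterByExpr. Differences were tested two-sided in R 4.3.3 by the quasi-likelihood fit of edgeR 4.0.16 to the treatment groups, with no other term, TMM scaling and Benjamini-Hochberg adjustment over 15643 genes at 0.05. There were 2 residual and 3.28 prior degrees of freedom. DESeq2 1.42.0 and limma-voom (limma 3.58.1) were alternatives, as were other filters, scalings, a limma fit to log2(FPKM + 1), a library-letter term, a muscle-score term, leaving out each library, and summing each member with its nuclear copy. The fits were also run on simulated counts with known fold changes. That run checks the code and cannot show which tool's calls hold in these libraries. Copies were sought among GENCODE vM21 transcripts with blastn 2.17.0 and kept at 99% identity and 200 bases or more. Class sums were tested with an exact permutation test over libraries. Effective length is the count divided by FPKM and by the library's total.

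Members and gene lists were chosen with earlier results of these data known. Members named in full were those called by any of edgeR, DESeq2 or the authors' table, the 6 with the smallest p, the rRNAs, overlapping pairs, mt-Nd6 and the 5 most counted tRNAs; of each partner list the 3 genes with the smallest p, with Tfam, Polrmt, Polg, Lrpprc and Ppargc1a added. Other members were named after their values were seen.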

Additional observations from a re-analysis of the deposited data

How the results depend on the processing

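Of all tested genes, edgeR called 1, DESeq2 405, edgeR without the low-count filter 651, the fit with the library letter as a block 0, the muscle-score term 0 and DESeq2 on summed copies 402 (an alternative chosen after seeing the data), and 1729 had an unadjusted p under 0.05. Leaving out 1 library gave 0 to 309 calls: 0 without vehicle A, 5 without BML-260 B and 309 without vehicle B. Of the members, edgeR called 0, and also 0 without any 1 library, while DESeq2 and edgeR without the filter each called 2 (mt-Co3 and mt-Nd4l) and 4 had an unadjusted p under 0.05. The log2 fold change of mt-Co3 was 1.07 to 1.52 in the alternatives that did not sum it with its copy, and that of mt-Nd4l was 0.76 to 1.43, lowest without BML-260 B. Summed with its copy, mt-Atp6 reversed to 0.12 in edgeR and 0.11 in DESeq2, where the copy holds most counts of the pair. mt-Nd4 reversed to -0.038 with the muscle-score term and ran between -0.049 and 0.15 without 1 library. mt-Nd6 ran between -0.074 and 0.19 and mt-Tp between -0.26 and 0.11 without 1 library; the causes were not tested. The class log2 ratio of protein genes was 0.024 to 0.25 without 1 library, lowest without BML-260 B, and that of tRNA rows -0.20 to 0.15, or 0.38 without mt-Tp. rRNAs stayed between 0.36 and 0.66 without 1 library. Whether the letters A and B pair the libraries could not be settled with 2 libraries a group. Over genes, the deviations of the A libraries from their group means correlated at -0.04. The block called 0 of all genes with 1 residual degree of freedom, so its unchanged member calls cannot decide this. Scaling moved the median of all genes to between -0.04 and 0.02. With 2 libraries a group, no exact test could go below 0.333.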
